A study of Mus musculus with 6 samples.

Results

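The insulin-like growth factor (IGF) system was followed in limb bone RNA through 9 genes, chosen by name from the count table of 43346 genes: the growth factor gene Igf1, the receptor genes Igf1r and Igf2r, and the binding protein genes Igfbp2, Igfbp3, Igfbp4, Igfbp5, Igfbp6 and Igfbp7. All 9 were present once in the table and all 9 passed the filter on low counts that left 20210 genes for testing. The libraries came from hindlimb and forearm bones of C57BL/6 pups aged 1 day: 3 from pups with a conditional knockout of Hdac3, named in the study design with Prx1 (Hdac3 CKO), and 3 from wild type pups (WT). A Cre transgene under Prx1 control acts in the mesenchyme of the developing limb, from which osteoblasts, chondrocytes and tendon cells descend, whereas blood cells, macrophages, endothelium and muscle fibres have other origins. The labels do not name the Cre and floxed alleles, nor say whether WT pups carried either of them. They also do not tie each library to a separate pup, so the p-values reflect variation among libraries, some of which may be technical.

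IGF1 is a secreted growth factor, made in the liver under growth hormone and also locally in bone, cartilage and muscle, and it drives growth of the skeleton before and after birth. It signals through the tyrosine kinase receptor encoded by Igf1r, while the receptor encoded by Igf2r carries lysosomal enzymes and removes IGF2 from the cell surface. Binding proteins hold IGFs outside cells, and depending on the protein and on the proteases that cut it, they store, deliver or block the growth factor. IGFBP7 is a distant relative that binds IGFs weakly.

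Total counts were 46926855, 43389262 and 45119142 in Hdac3 CKO replicates 1, 2 and 3, against 50927978, 47392678 and 46156691 in WT replicates 1, 2 and 3. Values below are library-size-scaled counts (CPM) after TMM normalisation. The genotypes were tested by the quasi-likelihood method of edgeR, and Benjamini-Hochberg adjustment covered all 20210 genes. The words rose and fell are kept for genes with an adjusted p under 0.05. Hdac3 RNA averaged 29.8 ± 1.8 CPM in Hdac3 CKO and 48.7 ± 1.4 CPM in WT (SD, n = 3 each), a log2 fold change of -0.71 ± 0.12 (SE). RNA remained at a fold of 0.613 in these whole bones, with an edgeR adjusted p of 0.027. That call was lost without WT replicate 1, 2 or 3 or without Hdac3 CKO replicate 2 or 3, where the adjusted p reached 0.126. The 8 osteoblast markers had a summed level of 67353 to 97927 CPM in Hdac3 CKO and 44100 to 57731 CPM in WT, and 0 of them passed the test. Col1a1 (44768 CPM in Hdac3 CKO and 26628 CPM in WT on average) and Col1a2 (34200 CPM in Hdac3 CKO and 21901 CPM in WT) made up most of that sum. Ibsp (log2 fold change 1.21, edgeR adjusted p of 0.057), Sp7 (0.38) and Alpl (0.18) were also higher on average in Hdac3 CKO. Bglap, Bglap2 and Runx2 were lower on average. The 8 skeletal muscle markers were also high, at 28287 to 47184 CPM in Hdac3 CKO and 25608 to 31141 CPM in WT. Cartilage RNA differed widely within both genotypes, at 802 to 14560 CPM in Hdac3 CKO and 1218 to 6911 CPM in WT over 8 markers, with replicate 3 the highest in each. Of 7 neutrophil markers 4 fell, with summed levels of 17.4 to 26.9 CPM in Hdac3 CKO and 83.4 to 249 CPM in WT.

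Of the 9 IGF genes, 1 rose in Hdac3 CKO bones, 0 fell and 8 did not pass the test. Across all genes tested, 1.18% passed, with 0.703% higher and 0.475% lower. An unadjusted p under 0.05 was reached by 4 of the 9 genes, beside 3031 (15.0%) of all genes tested. At an adjusted p under 0.05, 142 genes were higher and 96 lower. Scaling by library totals alone gave 58 higher and 120 lower at that threshold, with Igfbp6 still higher. The gene that rose was Igfbp6, which encodes a binding protein with a marked preference for IGF2 over IGF1. Libraries of the genotypes did not overlap for 4 of the 9 genes, as was the case for 22.5% of all genes tested. Igfbp6, Igfbp4 and Igf2r were higher in every Hdac3 CKO library than in any WT library, and Igfbp5 was lower. The median log2 fold change of the 9 genes was 0.054, beside 0.00098 for all genes tested.

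**Figure D1:**
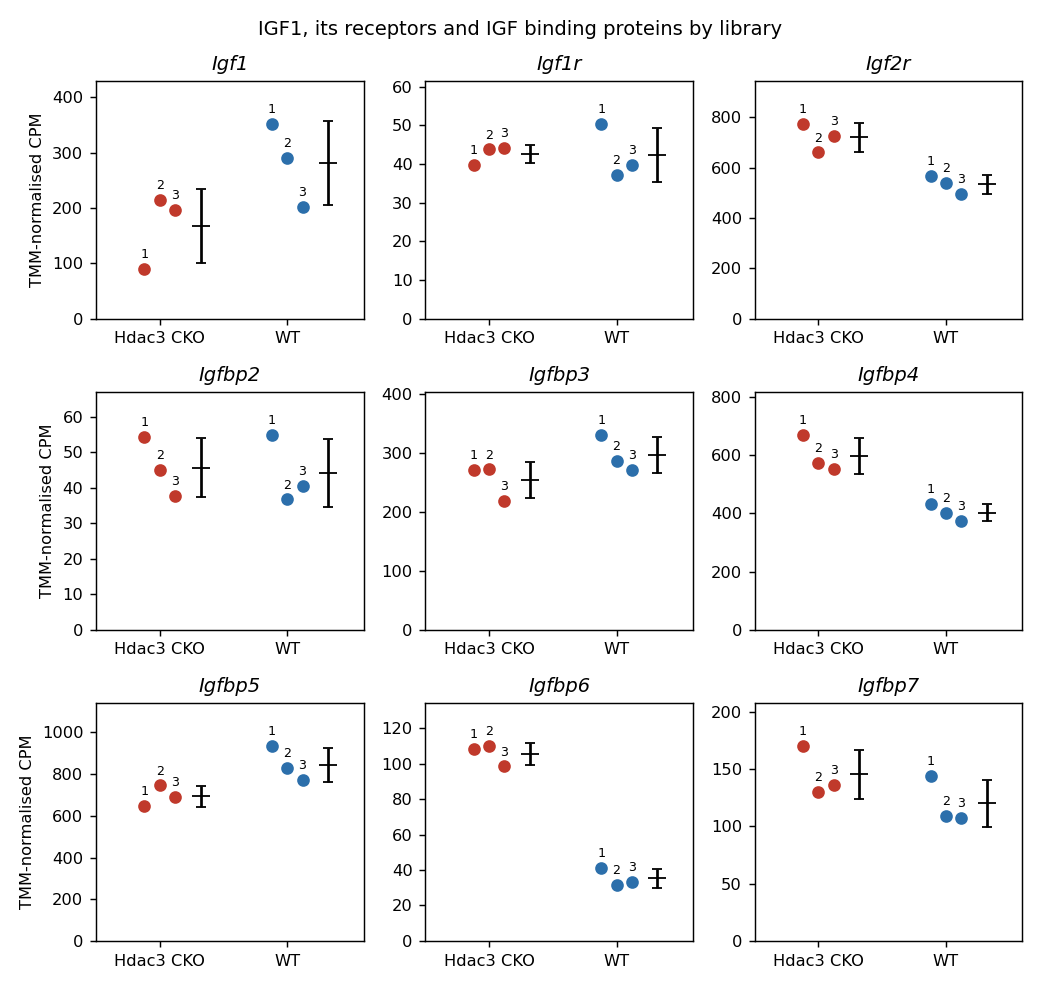
TMM-normalised CPM (vertical axes, from 0) of the 9 IGF genes in each library, with Hdac3 CKO in red and WT in blue; small digits give the replicate and black bars the mean with SD (n = 3). Igfbp6 stood between 98.5 and 109.9 CPM in Hdac3 CKO and between 31.4 and 41.4 CPM in WT, while the Igf1 values of the genotypes overlapped.

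Igfbp6 (ENSMUSG00000023046, chromosome 15, 102144362 to 102149511 on mm10) had 108.5, 109.9 and 98.5 CPM in Hdac3 CKO replicates 1, 2 and 3, against 41.4, 31.4 and 33.3 CPM in WT replicates 1, 2 and 3. Every Hdac3 CKO library was far above every WT library, and the gap between the genotypes exceeded the spread within either of them. The mean was 106 ± 6.2 CPM in Hdac3 CKO and 35.4 ± 5.3 CPM in WT (SD, n = 3 each). Igfbp6 rose 2.98-fold, a log2 fold change of 1.58 ± 0.14 (SE; 95% interval 1.26 to 1.90; edgeR adjusted p = 0.0053). By p-value it was rank 3 of the 20210 genes. The counts behind these values were 4479, 4679 and 4238 in Hdac3 CKO and 2205, 1622 and 1638 in WT. The call held whichever single library was left out, with log2 fold changes of 1.499 to 1.71 and adjusted p of 0.0034 to 0.023 in edgeR. Without both cartilage-rich libraries (replicate 3 of each genotype) the log2 fold change was 1.58 with an edgeR adjusted p of 0.092, in a comparison of 2 against 2 libraries that called 0 genes in all, with 2309 at an unadjusted p under 0.05.

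IGFBP6 is a product of connective tissue fibroblasts, among other cells, so markers of tendon and connective tissue are given beside it. Of 7 such markers 0 rose and 2 fell, and their summed level was 354 to 445 CPM in Hdac3 CKO and 396 to 533 CPM in WT, with none at 0. Tnmd (log2 fold change 0.16) and Scx (0.38) were higher on average in Hdac3 CKO, and Mkx (-0.51), Dpt (-0.50) and Clec3b (-0.45) lower. Tnmd averaged 228 CPM in Hdac3 CKO and 204 CPM in WT, the largest part of the sum. The 2 that fell were Dpp4 (log2 fold change -2.08) and Pi16 (-1.25), which mark fibroblasts of connective tissue sheets. In whole bone, fewer cells of a type and less RNA per cell cannot be told apart. The part of these cells in the Igfbp6 result was not tested.

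The 3 genes whose pattern over the 6 libraries was most like that of Igfbp6, by Pearson correlation of log2 CPM among 16062 genes with a mean of at least 1 CPM, were Sgsm2 (r = 0.998), Spon2 (r = 0.998) and Icam1 (r = 0.996). The libraries fell into 2 separate groups for all of these genes, so these coefficients mostly describe the difference between genotypes. Spon2, which encodes a secreted matrix protein, had 133, 139.7 and 128 CPM in Hdac3 CKO, against 58.7, 44.0 and 43.3 CPM in WT. It rose by 1.46 on the log2 scale, Icam1, an adhesion molecule, by 0.80 and Sgsm2 by 0.65.

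Igfbp4 encodes a binding protein that mostly blocks IGF action in cultured bone cells until it is cut by the protease PAPP-A. Igfbp4 (chromosome 11, 99041244 to 99054392) had 669, 573 and 554 CPM in Hdac3 CKO, against 433, 402 and 375 CPM in WT. The genotypes did not overlap, and the nearest pair, Hdac3 CKO replicate 3 and WT replicate 1, was well apart. The mean was 599 ± 62 CPM in Hdac3 CKO and 403 ± 29 CPM in WT (SD, n = 3 each). The log2 fold change of 0.57 ± 0.14 (SE), or 1.49-fold with a 95% interval of 1.197 to 1.84, had an edgeR adjusted p of 0.094 and did not pass. DESeq2 gave 0.58 with an adjusted p of 0.0090, the only alternative in which Igfbp4 passed.

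Igf2r (chromosome 17, 12682406 to 12769664) had 774, 661 and 726 CPM in Hdac3 CKO, against 568, 540.0 and 494 CPM in WT. All Hdac3 CKO libraries were above all WT libraries. The log2 fold change was 0.43 ± 0.14 (SE), 1.35-fold with a 95% interval of 1.09 to 1.67, and the adjusted p of 0.19 in edgeR did not pass. Of the 9 genes, Igf2r and Igfbp4 were the most alike over the 6 libraries (r = 0.973), and the member most like Igfbp6 was also Igfbp4 (r = 0.959).

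The promoter windows of the 3 genes that were higher in all Hdac3 CKO libraries are shown to let their sequences be compared. Each covers 300 bases across the gene's RefSeq start on GRCm38.p6, 5′ to 3′ on the gene's strand. Capitals mark matches, on either strand, to any of 4 motifs. GGGCGG is the GC box bound by SP1. TATAAA is the TATA box. AGGTCA is a nuclear receptor half-site. TGTGGT is a RUNX site. The windows lie at chr15:102143936-102144235 (plus strand) for Igfbp6, chr11:99040994-99041293 (plus strand) for Igfbp4 and chr17:12769657-12769956 (minus strand) for Igf2r.
Igfbp6: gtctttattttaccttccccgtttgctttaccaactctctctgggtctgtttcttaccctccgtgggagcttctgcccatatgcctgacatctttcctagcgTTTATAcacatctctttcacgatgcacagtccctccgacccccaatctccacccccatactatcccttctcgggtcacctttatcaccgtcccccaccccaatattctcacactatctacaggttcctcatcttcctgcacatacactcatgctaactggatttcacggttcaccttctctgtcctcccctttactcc
Igfbp4: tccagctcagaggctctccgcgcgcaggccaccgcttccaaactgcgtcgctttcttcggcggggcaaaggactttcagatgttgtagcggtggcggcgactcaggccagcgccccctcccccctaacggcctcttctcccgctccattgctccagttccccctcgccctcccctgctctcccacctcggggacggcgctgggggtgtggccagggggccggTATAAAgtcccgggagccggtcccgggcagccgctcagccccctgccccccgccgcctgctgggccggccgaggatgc
Igf2r: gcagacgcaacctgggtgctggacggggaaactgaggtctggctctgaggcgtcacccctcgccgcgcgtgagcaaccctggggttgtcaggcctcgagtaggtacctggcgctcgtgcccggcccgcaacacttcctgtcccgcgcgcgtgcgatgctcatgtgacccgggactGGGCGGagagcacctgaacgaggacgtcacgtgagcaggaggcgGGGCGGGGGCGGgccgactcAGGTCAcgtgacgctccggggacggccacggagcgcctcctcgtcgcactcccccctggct

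The 3 windows differed in base composition, and no motif was found in all of them. The Igfbp6 window, which lies upstream of the gene start in the deposited table, had a GC content of 49.7% with 8 CpG and 1 TATA box match, which was on the opposite strand. The Igfbp4 window had a GC content of 71.3% with 27 CpG and 1 TATA box match. That of Igf2r had a GC content of 70.7% with 34 CpG, 3 GC box matches, of which 2 adjoin, and 1 half-site match. Among 32851 mouse promoter windows of the same length, 13.6% held the TATA box letters, 35.7% the GC box, 16.3% the half-site and 16.8% the RUNX letters, with a median of 7 CpG. These matches describe letters only.

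Igf1 (ENSMUSG00000020053, chromosome 10, 87858265 to 87937042) was lower on average in Hdac3 CKO and did not pass the test. It had 90.5, 215 and 197 CPM in Hdac3 CKO replicates 1, 2 and 3, against 352, 289.8 and 202 CPM in WT replicates 1, 2 and 3. Hdac3 CKO replicate 1 was far below the rest, and Hdac3 CKO replicate 2 lay above WT replicate 3, so the genotypes overlapped. The mean was 167 ± 67 CPM in Hdac3 CKO and 281 ± 75 CPM in WT (SD, n = 3 each). Igf1 was the most variable of the 9 genes in both genotypes, with a coefficient of variation of 40.1% in Hdac3 CKO and 26.7% in WT, where that of the other 8 genes ran from 5.75% to 18.1% in Hdac3 CKO and from 6.92% to 21.7% in WT. The log2 fold change was -0.75 ± 0.31 (SE), with a 95% interval of -1.45 to -0.05 and an edgeR adjusted p of 0.30. Without Hdac3 CKO replicate 1 it was -0.46, with an edgeR adjusted p of 0.40.

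Hdac3 CKO replicate 1 stood apart from the other 5 libraries in ways that reach beyond Igf1. In that library the genes in the top length class (deposited lengths of 5124 bases or more) had a median deviation of -0.14 on the log2 scale from each gene's mean over the 6 libraries, and those in the bottom class (1662 bases or fewer) had 0.22. In the other 5 libraries these medians ran from 0.0064 to 0.083 for the top class and from -0.10 to 0.0092 for the bottom class. The deposited length of Igf1 is 9904 bases, in the top class. Igf2r is almost as long, at 9438 bases, and had its highest value in the same library. Igfbp6, at 1112 bases, and Igfbp7, at 1213 bases, are in the bottom class. Igfbp7 had its highest value in Hdac3 CKO replicate 1 and Igfbp6 in Hdac3 CKO replicate 2. Without Hdac3 CKO replicate 1 the log2 fold change of Igfbp6 was 1.55. Hdac3 CKO replicate 1 was also the library with the highest summed muscle markers, at 47184 CPM, and with these markers as a covariate the log2 fold change of Igf1 was -0.37, with an edgeR adjusted p of 0.64. Of these markers Acta1, Ckm, Tnnt3, Mylpf and Myog (885 to 1495 bases) are in the bottom length class, and Myh3, Myh8 and Actn3 are longer. The muscle covariate is therefore not separate from gene length. The part of gene length and of RNA quality in the Igf1, Igfbp6 and Igfbp7 values was not tested.

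Macrophages are another known source of IGF1. Of 8 macrophage markers 6 rose and 0 fell, none was at 0, and their summed level was 487 to 564 CPM in Hdac3 CKO and 264 to 281 CPM in WT. Igf1 did not follow that direction, and its difference from these markers was not tested.

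Igf1r (chromosome 7, 67952859 to 68226780) had 39.8, 43.8 and 44.3 CPM in Hdac3 CKO, against 50.4, 37.2 and 39.7 CPM in WT. The Hdac3 CKO values lay within the range of the WT values. The log2 fold change was 0.0054 ± 0.15 (SE) with an edgeR adjusted p of 0.99 and a 95% interval of 0.801 to 1.26 in folds. The sign of this small difference turned with the scaling: scaled by library totals alone it was -0.17, where the median of all genes was -0.18. The table counts Igf1r over 4489 bases, while GENCODE M21 gives 16791 exonic bases, so its length-scaled level depends on the annotation.

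Igfbp5 encodes the most abundant binding protein of bone matrix, where it is stored with IGFs. Igfbp5 (chromosome 1, 72857932 to 72874884) had 646, 746 and 691 CPM in Hdac3 CKO, against 934, 829.6 and 771 CPM in WT. The genotypes did not overlap, although Hdac3 CKO replicate 2 and WT replicate 3 were close. The log2 fold change was -0.28 ± 0.14 (SE), with a 95% interval of -0.60 to 0.034 and an edgeR adjusted p of 0.38. Igfbp5 was the member most like Igf1 over the 6 libraries (r = 0.908), with WT replicate 1 highest and Hdac3 CKO replicate 1 lowest for both.

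Igfbp3, Igfbp2 and Igfbp7 overlapped between the genotypes. Igfbp3 (chromosome 11, 7206086 to 7213923) encodes the main carrier of IGFs in serum and had 271, 271 and 218 CPM in Hdac3 CKO, against 329.8, 286 and 270.4 CPM in WT, a log2 fold change of -0.22 ± 0.14 (SE). Only Hdac3 CKO replicate 3 was clearly below the WT range. Igfbp2 (chromosome 1, 72824503 to 72852474), whose protein also binds integrins, had 54.3, 45.1 and 37.8 CPM in Hdac3 CKO, against 54.9, 36.7 and 40.6 CPM in WT, a log2 fold change of 0.054 ± 0.19 (SE) that was -0.13 with library totals. Its values covered almost the same range in both genotypes. Igfbp7 (chromosome 5, 77349240 to 77408045) had 170.2, 130.5 and 136 CPM in Hdac3 CKO, against 144, 109 and 108 CPM in WT, a log2 fold change of 0.28 ± 0.16 (SE). WT replicate 1 lay above 2 of the 3 Hdac3 CKO libraries. In GENCODE M21, 85 exonic bases of Igfbp7 overlap the neighbouring gene Polr2b, so reads there may be shared or lost. The adjusted p was 0.49 for Igfbp3, 0.92 for Igfbp2 and 0.45 for Igfbp7 in edgeR.

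**Figure D2:**
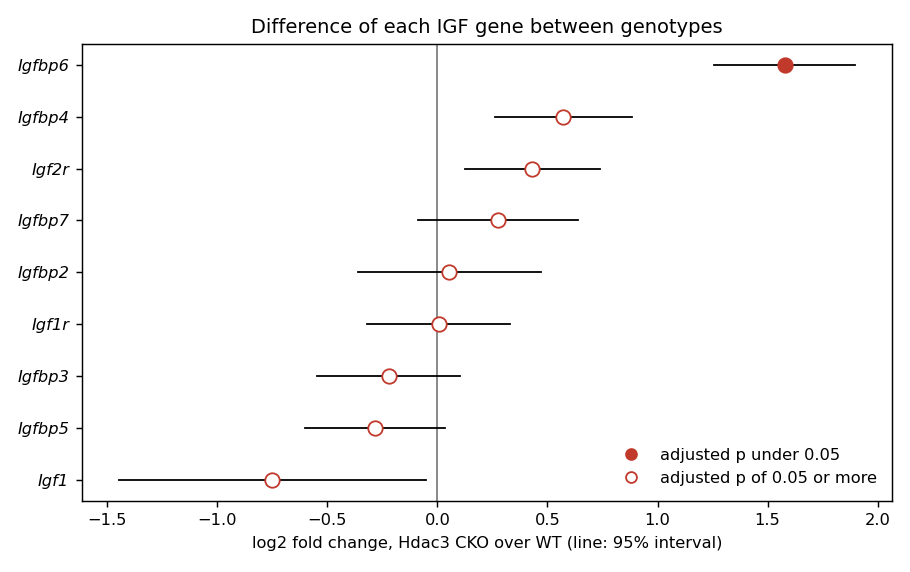
Log2 fold change of each IGF gene, Hdac3 CKO over WT (horizontal axis), with its 95% interval as a line; the filled point passed the test and open points did not. Igfbp6 at 1.58 stands apart, the intervals of Igfbp4 and Igf2r lie above 0, and that of Igf1 runs from -1.45 to -0.05.

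Levels were compared between genes only after scaling by the deposited gene length, as TMM-normalised CPM per kilobase. In Hdac3 CKO the order was Igfbp4 (136 ± 14), Igfbp7 (120.1 ± 18), Igfbp5 (115.6 ± 8.3), Igfbp6 (95.001 ± 5.6), Igfbp3 (80.9 ± 9.8), Igf2r (76.3 ± 6.0), Igfbp2 (24.8 ± 4.5), Igf1 (16.9 ± 6.8) and Igf1r (9.50 ± 0.55), as mean CPM per kilobase ± SD over 3 libraries. In that order the libraries of Igfbp5 and Igfbp6, of Igfbp6 and Igfbp3, and of Igf2r and Igfbp2 did not overlap, while all other neighbours did. In WT the order was Igfbp5 (141 ± 14), Igfbp7 (99.2 ± 17), Igfbp3 (94.4 ± 9.8), Igfbp4 (91.3 ± 6.6), Igf2r (56.6 ± 3.9), Igfbp6 (31.8 ± 4.8), Igf1 (28.4 ± 7.6), Igfbp2 (23.9 ± 5.2) and Igf1r (9.46 ± 1.6), in the same unit. There the neighbours that did not overlap were Igfbp5 and Igfbp7, Igfbp4 and Igf2r, Igf2r and Igfbp6, and Igfbp2 and Igf1r.

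The make-up of the binding protein RNA was described as the share of each of the 6 genes in their summed CPM per kilobase, with no test. Igfbp6 made up 15.9%, 17.3% and 16.7% in Hdac3 CKO replicates 1, 2 and 3, against 6.84%, 6.16% and 6.81% in WT replicates 1, 2 and 3. Igfbp4 made up 23.7% ± 1.0 in Hdac3 CKO and 19.0% ± 0.95 in WT (SD, n = 3 each), and the genotypes did not overlap for either gene. Igfbp5, the leading share in all WT libraries, made up 20.3% ± 2.4 in Hdac3 CKO and 29.3% ± 0.79 in WT. Igfbp3 made up 14.1% ± 1.0 in Hdac3 CKO and 19.6% ± 0.29 in WT, also without overlap. The shares of Igfbp7 (21.0% ± 2.0 in Hdac3 CKO and 20.5% ± 1.1 in WT) and Igfbp2 (4.31% ± 0.48 in Hdac3 CKO and 4.93% ± 0.56 in WT) overlapped. Shares of 1 library sum to 100%, so they do not move independently. The summed binding protein level was 613, 572 and 532 CPM per kilobase in Hdac3 CKO and 545, 459 and 440.3 in WT, and the genotypes overlapped.

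**Figure D3:**
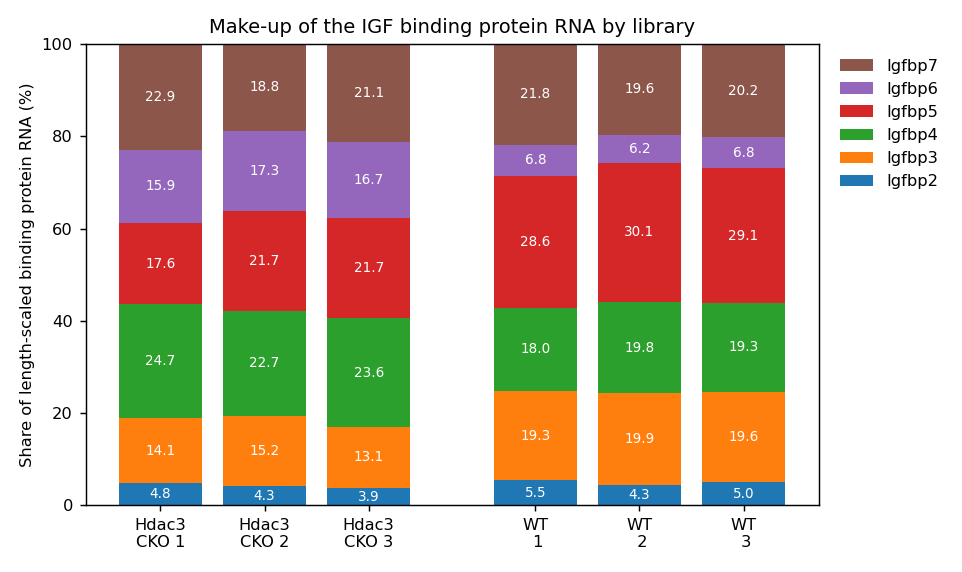
Share of each binding protein gene (percent, vertical axis) in the summed CPM per kilobase of the 6 genes, in each library. The Igfbp6 band is between 15.9% and 17.3% in the Hdac3 CKO libraries and between 6.16% and 6.84% in the WT libraries, and the Igfbp5 band is narrower in Hdac3 CKO.

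Some binding protein genes are close neighbours in the genome. Igfbp2 and Igfbp5 are 5457 bases apart on chromosome 1 and Igfbp3 lies 3539 bases from Igfbp1 on chromosome 11. Igfbp2 and Igfbp5 had log2 fold changes of 0.054 and -0.28. Igfbp1 was too low to be tested, with 10, 8 and 13 counts in Hdac3 CKO and 9, 2 and 0 counts in WT.

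Other genes of the pathway were taken from 8 lists with 60 genes, of which 57 could be tested. Of these 57, 1 rose and 2 fell, beside the 0.703% and 0.475% of all genes, and the median log2 fold change was 0.11. An unadjusted p under 0.05 in edgeR was reached by 15 of the 57, beside 15.0% of all genes tested. They included 4 of the 6 IGFBP proteases and their inhibitors and 4 of the 10 proteins with an IGFBP-like domain. Another 3 were among the 12 mTOR and FOXO genes, and 1 among the 2 tested genes of other IGF ligands and binding proteins. Counts for the remaining lists are given below. The genes not tested were Igfbp1, Igfbpl1 and Irs4.

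The genes that fell were Adam12 and Nov. Adam12 encodes a membrane metalloproteinase that can cut IGFBP3 and IGFBP5, and had 64.9, 77.8 and 64.5 CPM in Hdac3 CKO, against 115.0, 123.2 and 118.2 CPM in WT. All Hdac3 CKO libraries were below all WT libraries, and Adam12 fell by 0.78 ± 0.13 on the log2 scale (adjusted p of 0.025 in edgeR). In the list of 6 IGFBP proteases and their inhibitors Adam12 was the only gene that passed. Pappa2, whose product cuts IGFBP3 and IGFBP5, had 2.64, 3.59 and 8.83 CPM in Hdac3 CKO, against 20.2, 13.9 and 12.5 CPM in WT, a log2 fold change of -1.63 ± 0.40 with an edgeR adjusted p of 0.099. Pappa, which encodes PAPP-A and was chosen for naming after its values were seen, had 5.45, 9.07 and 8.79 CPM in Hdac3 CKO, against 10.9, 10.8 and 12.9 CPM in WT, with a log2 fold change of -0.57 and an edgeR adjusted p of 0.25. Libraries of the genotypes did not overlap for these 3 proteases, as was the case for 22.5% of all genes tested. They overlapped for the other 3 genes of the list, named here to complete it: the protease gene Htra1 (log2 fold change -0.05) and the stanniocalcin genes Stc1 (0.18) and Stc2 (0.62, edgeR adjusted p of 0.24), whose products inhibit PAPP-A. Stc2, in the opposite direction, had a smaller p than Pappa.

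Of 10 proteins with an IGFBP-like domain, 0 genes rose and 1 fell. Nov, a secreted matricellular protein of the CCN family, had 78.1, 106.6 and 89.8 CPM in Hdac3 CKO, against 209.8, 156 and 143 CPM in WT. It fell by 0.89 ± 0.18 on the log2 scale (adjusted p of 0.049 in edgeR), close to the threshold, and the call was lost in limma-voom (adjusted p of 0.061) and in 5 of the 6 fits that left out a library. Htra3, a secreted serine protease with the next smallest p, had a log2 fold change of 0.73 ± 0.16 and an edgeR adjusted p of 0.066.

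Among ligands, Igf2, the main IGF of fetal growth, was far more abundant per kilobase than Igf1. It had 8615, 6319 and 6928 CPM in Hdac3 CKO, against 6563, 6754 and 6417 CPM in WT, with overlapping genotypes and a log2 fold change of 0.15 ± 0.18 (adjusted p of 0.72 in edgeR). The ratio of Igf2 to Igf1 per kilobase was 164.8, 50.97 and 60.87 in Hdac3 CKO and 32.3, 40.3 and 54.9 in WT. Hdac3 CKO replicate 1, low in Igf1, gave the highest ratio. In GENCODE M21, Igf2 shares exonic bases with the antisense gene Igf2os, and without a stated strand setting their reads cannot be told apart. Igfals, which encodes the third partner of the serum IGF complex, was near the limit of detection at 0.291, 0.399 and 1.00 CPM in Hdac3 CKO and 0.207, 0.291 and 0.244 CPM in WT, with an edgeR adjusted p of 0.33.

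Of 6 genes of the growth hormone axis, 8 of the insulin receptor and receptor substrate list, 10 of PI3K and AKT and 3 IGF2 mRNA-binding proteins, 0 rose and 0 fell in edgeR, with 0, 1, 1 and 1 at an unadjusted p under 0.05, where the share over all genes was 15.0%. By smallest p, the growth hormone axis was led by the kinase Jak2 (log2 fold change -0.39) and the transcription factor Stat5a (0.24). The adaptors Gab1 (0.40) and Grb2 (0.23) led the receptor substrates, the kinase Akt1 (0.51, adjusted p of 0.16 in edgeR) led PI3K and AKT, and Igf2bp1 (0.46) and Igf2bp2 (0.19) led the RNA-binding proteins. DESeq2 called 6 of all pathway genes, over all lists.

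Of 12 mTOR and FOXO genes 1 rose and 0 fell. Ddit4, a stress-induced inhibitor of mTOR that is also known as REDD1, had 162, 159 and 124 CPM in Hdac3 CKO, against 65.5, 52.6 and 82.1 CPM in WT. It rose by 1.15 ± 0.18 on the log2 scale with an edgeR adjusted p of 0.023, and the lowest Hdac3 CKO library was above the highest WT library. Foxo3, a transcription factor that AKT keeps out of the nucleus, had a log2 fold change of 0.37 ± 0.12 and an edgeR adjusted p of 0.19. Each of the 3 pathway calls was lost in some fits with 1 library left out, although the log2 fold changes stayed at -0.88 to -0.73 for Adam12, -1.02 to -0.71 for Nov and 1.007 to 1.328 for Ddit4. Adam12 did not pass without Hdac3 CKO replicate 3 or any WT replicate, with edgeR adjusted p up to 0.119, and Ddit4 did not pass without Hdac3 CKO replicate 3 or WT replicate 1 or 2, with edgeR adjusted p up to 0.101. Without WT replicate 1 or 2 the number of pathway genes that passed was 0. With muscle markers as a covariate the edgeR adjusted p was 0.064 for Ddit4 and 0.134 for Nov, and with cartilage markers it was 0.074 for Nov.

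**Figure D4:**
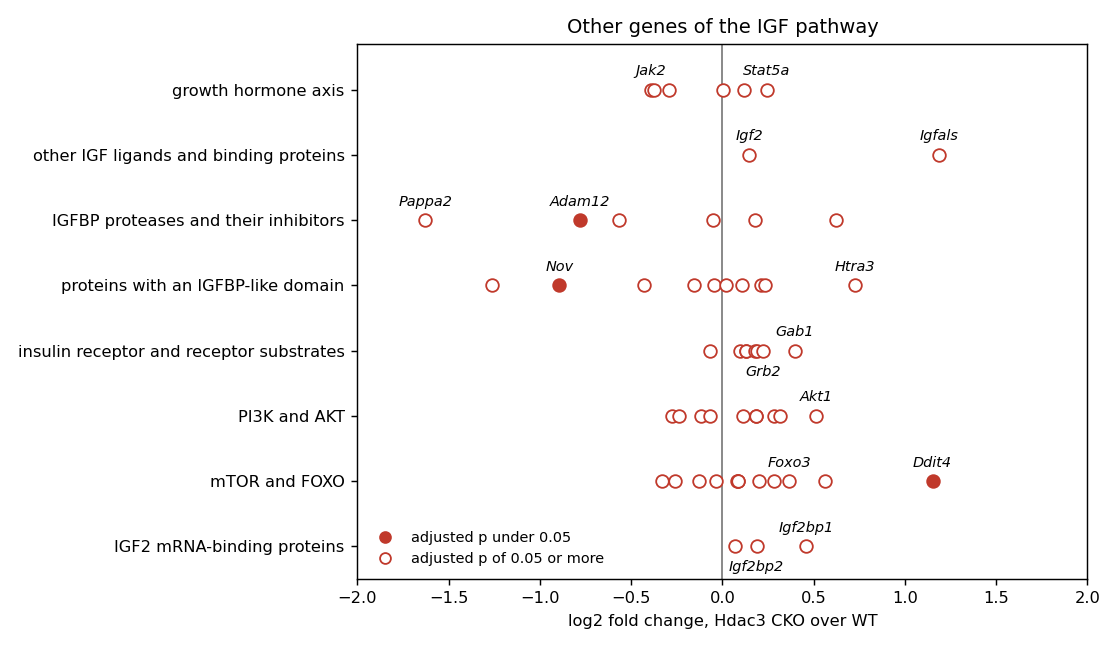
Log2 fold change, Hdac3 CKO over WT (horizontal axis), of the 57 tested pathway genes in 8 lists (rows); filled points passed the test and names mark the calls and genes with the smallest p of each list. Adam12 and Nov are filled to the left of 0 and Ddit4 to the right. The growth hormone, receptor substrate and AKT rows hold only open points, from -0.39 (Jak2) to 0.51 (Akt1).

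Leaving out each library in turn kept the order of the extremes, with Igfbp6 the highest and Igf1 the lowest of the 9 genes. The direction held in all 6 such fits for Igf1, Igf2r, Igfbp3, Igfbp4, Igfbp5, Igfbp6 and Igfbp7, and turned in at least 1 for Igf1r and Igfbp2.

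**Figure D5:**
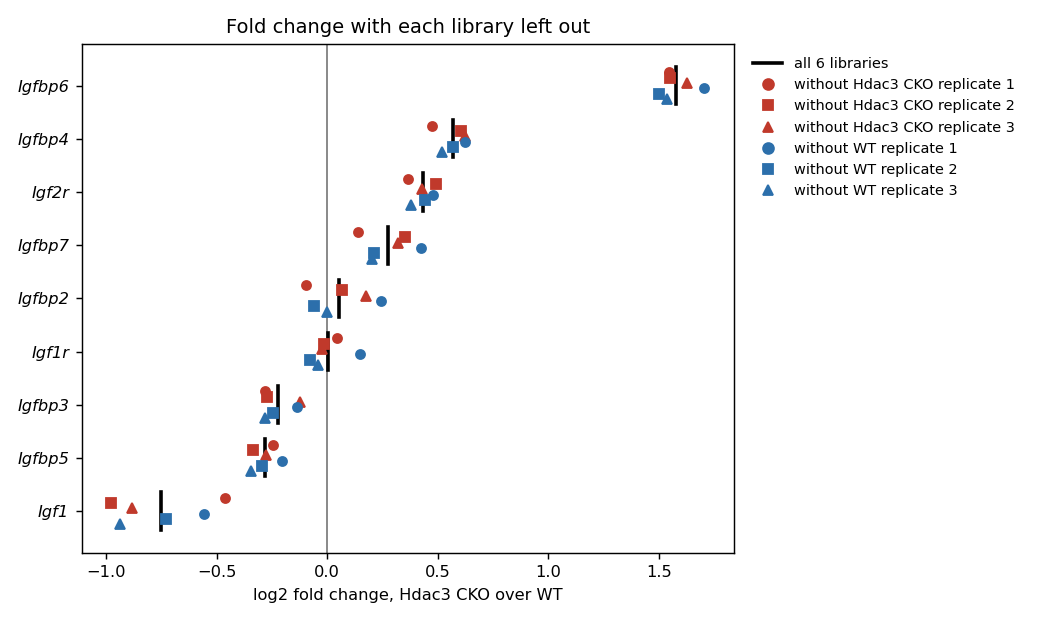
Log2 fold change of each IGF gene, Hdac3 CKO over WT (horizontal axis), from all 6 libraries (black bar) and with 1 library left out (red symbols for an Hdac3 CKO library, blue for a WT library). Igfbp6 stays between 1.499 and 1.71, and Igf1 ranges from -0.98 to -0.46.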

How the data were processed

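RNA of cleaned limb bones was made into TruSeq v2 mRNA libraries, per the labels' protocols. For each gene the authors deposited raw counts and RPKM values, which are scaled by gene length and read total. The submitters' processing notes list mm10 and the tools TopHat2 2.1.0, featureCounts of Subread, and bcl2fastq 1.8.4. Strand, multi-mapping and annotation settings were not given in the sources used here. Genotypes were taken from the labels, and replicates were numbered in record order.

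Counts were analysed in edgeR 4.0.16 (R 4.3.3) with its filter on low counts, TMM factors and robust quasi-likelihood fits without covariates. The procedure was also run on simulated counts in which all genes had the same dispersion (spread between libraries). That run does not reflect differences in spread between genes. Alternatives used other scalings, filters, DESeq2 1.42.0, limma 3.58.1 (voom, or log2 RPKM with a pseudocount of 1 or 0.1), marker covariates and fewer libraries. CPM per kilobase used the deposited lengths. Exons came from GENCODE M21 and promoters from RefSeq (GRCm38.p6), in which all 9 genes were found.

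The genes and lists were chosen with earlier results of these data known. Named are all 9 IGF genes, all pathway genes that passed, the 2 smallest p of each list (1 of these genes is not reported here), and the 3 genes most like each IGF gene that passed. Counting error is small for the 9 IGF genes at these depths, and the number of libraries limits the precision. It is larger for genes with few counts, such as Igfals (11 to 43 counts per library).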

Additional observations from a re-analysis of the deposited data

How the results depend on the processing

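The 9 log2 fold changes were recomputed under 18 alternatives. Igfbp6 was higher in all 18 (1.39 to 1.71) and passed in 17. Igf1, Igf2r, Igfbp3, Igfbp4, Igfbp5 and Igfbp7 kept their direction in all 18. Library totals moved the median of all genes to -0.18, with 178 genes called, 58 of them higher, Igf1r at -0.17 and Igfbp2 at -0.13. On log2 RPKM values with 1 added, limma called 96 genes (37 higher, 59 lower) and 1 pathway gene, with Hdac3 at -0.74 (adjusted p of 0.056), Igf1r at -0.098 and Igfbp2 at -0.063. With 0.1 added it called 140 genes, 51 of them higher, with Igf1r at -0.11 and Igfbp2 at -0.067. DESeq2 called 829 genes (455 higher, 374 lower), 2 of the 9 IGF genes (Igfbp6, and Igfbp4 at 0.58) and 6 pathway genes. Limma-voom called 157, with 52 lower. With the cartilage covariate 158 passed (81 higher) and Hdac3 stood at -0.71 (adjusted p of 0.066). With the muscle covariate 105 passed (75 higher, 30 lower), with 1 pathway gene and Igfbp2 at -0.060. Without replicate 3 of both genotypes edgeR called 0 genes (2309 at an unadjusted p under 0.05), 0 IGF genes and 0 pathway genes, with Hdac3 at -0.65, Igf1r at -0.069 and Igfbp6 at 1.58. The causes were not tested.

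Leaving out 1 library gave 23 to 175 genes called, 1 IGF gene each time and 0 to 4 pathway genes. Hdac3 ranged from -0.76 to -0.67, Igf1r from -0.080 to 0.15, Igfbp6 from 1.499 to 1.71 and Igfbp2 from -0.098 to 0.24. The earlier form of edgeR's fit, added after seeing the data, called 226 genes. No paired analysis was possible because the labels give no shared replicate numbers.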
